A study of Mus musculus with 6 samples.

Results

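The Th2 cytokine locus is the stretch of mouse chromosome 11 that holds Il4, Il13, Rad50 and Il5, and Ezh2 on it was compared with input DNA in Th1 and Th2 cells. The locus was bounded by position, at chr11:53415001-53545000 of the mm9 build, which is 130 of 2638957 bins of 1 kb on chromosomes 1 to 19 and X. No measured value set these bounds, but the locus was chosen with earlier results of these data known. All 6 libraries came from naive CD4 T cells of C57BL/6 mouse spleen, kept for 5 days with IL-2 at 15 ng/ml. Stimulation of the T cell receptor and CD28 lasted for the first 2 days, and the cytokines stayed for the other 3. Th1 cultures received IL-12 at 10 ng/ml and an antibody to IL-4, and Th2 cultures received IL-4 at 100 ng/ml and an antibody to IFN-γ. Each cell type gave 1 Ezh2 pull-down, 1 control antibody pull-down with rabbit IgG and 1 input, and without replicates the spread between cultures is unknown. The labels do not say how many animals went into a culture.

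Il4, Il13 and Il5 encode the cytokines by which Th2 cells act on B cells, mucosa and eosinophils. Th1 cells keep these genes silent. Rad50 encodes a DNA repair protein that most cells make, and its gene lies between the cytokine genes and holds a control region that acts on them in Th2 cells. Il4 and Il13 are read in the same direction, Rad50 is read toward Il13, and Il5 is read away from Rad50. Ezh2 is the enzyme of Polycomb repressive complex 2, which places methyl groups on lysine 27 of histone H3 at silent genes and in mammals is found mainly at sequence rich in CpG.

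Because Polycomb complexes favour CpG-rich sequence, the 250 bases before the start of each cytokine gene are shown from RefSeq (GRCm38.p6, 5′ to 3′ on the gene's own strand), where 3 of the 4 genes matched. Capitals mark CG and GATA, the core of sites for the Th2 regulator GATA3, in either orientation (GATA or TATC). Il4 has 2 listed starts, and the sequence belongs to the one farther upstream.
Il4: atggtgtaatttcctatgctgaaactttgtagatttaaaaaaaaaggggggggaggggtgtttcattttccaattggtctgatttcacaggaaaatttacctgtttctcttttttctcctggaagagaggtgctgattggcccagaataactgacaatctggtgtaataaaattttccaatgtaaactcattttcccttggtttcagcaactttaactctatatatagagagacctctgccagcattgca
Il13: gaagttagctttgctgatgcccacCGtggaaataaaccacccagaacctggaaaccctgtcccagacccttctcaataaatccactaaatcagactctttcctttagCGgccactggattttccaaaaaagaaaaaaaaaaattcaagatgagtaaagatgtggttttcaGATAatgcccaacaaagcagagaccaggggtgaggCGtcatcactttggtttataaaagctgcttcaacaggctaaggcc
Il5: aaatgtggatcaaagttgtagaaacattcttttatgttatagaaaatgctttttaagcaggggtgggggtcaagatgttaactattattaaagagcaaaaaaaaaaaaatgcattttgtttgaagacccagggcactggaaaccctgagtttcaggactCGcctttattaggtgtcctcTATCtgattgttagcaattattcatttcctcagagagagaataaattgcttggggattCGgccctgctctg

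CG was absent from the Il4 sequence and was below the median in the others. The Il4 sequence held 0, the Il5 sequence 2 and the Il13 sequence 3, where the median over 32851 listed promoters was 6. Of those promoters, 7.87% held no CG, 29.0% held at most 2 and 37.8% held at most 3. A GATA match began at base -80 of Il13 and at base -71 of Il5, counted from the start of the gene, and Il4 had 0 matches in this stretch. Of all listed promoters 53.6% held such a match, so its presence did not set these genes apart.

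Each line of a deposited file is 1 interval, nearly always 119 bp long, with its read count. Each distinct interval was counted once, at its midpoint, and is called a position here. Density means positions per kb per 1000000 positions of the library. The Ezh2 libraries held 10809666 positions in Th1 and 14963599 in Th2 on chromosomes 1 to 19 and X, and the inputs held 15578675 and 12862628. The Th1 control antibody library held 9326717. The Th2 control antibody file has no line of chromosome 11, so Th2 has no antibody control at this locus. The file names give the Ezh2 libraries different run labels, and cell type and run cannot be told apart.

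The 5′ end of Il4 was taken to lie near 53432000, Il13 near 53445000 and Il5 near 53535000. A 10 kb window was set around each of these positions: chr11:53425001-53435000 for Il4, chr11:53440001-53450000 for Il13 and chr11:53530001-53540000 for Il5. The 80 kb between the Il13 and Il5 windows (chr11:53450001-53530000) stands for Rad50. Exons, introns, UTRs and the ends of Rad50 were not placed, since no mm9 annotation was used here. A fold is the share of a library's positions in a window divided by the same share of its input. Its 95% interval is exact (Clopper-Pearson). With 1 library per group, intervals and tests cover counting error only. The reads carry no molecular identifiers, so where all reads are counted, amplification copies can enter as separate counts. P-values can then be too low. Each test is a comparison of single libraries and says nothing of the variation between cultures of a cell type.

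Il4 differed most between the cell types. Its window held 97 Ezh2 positions in Th1 and 53 in the deeper Th2 library. The Ezh2 density was 0.897 in Th1 and 0.354 in Th2. The Ezh2 density was higher in Th1 in 10 of the 10 bins of the window, against 94 of 130 in the whole locus (no genome-wide share was taken). The inputs went the other way, with 84 positions in Th1 and 105 in Th2 and densities of 0.539 and 0.816.

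Ezh2 at Il4 was therefore above input in Th1 and below it in Th2. The fold over input was 1.66 in Th1 (95% interval 1.23 to 2.26, two-sided exact binomial test, adjusted p = 0.0178). In Th2 it was 0.434 (0.306 to 0.609, exact test, adjusted p = 2.61e-05). The p-values were adjusted by Benjamini-Hochberg over all 10 kb windows of the genome at 5 kb steps, of which 4.48% passed as higher in Th1 and 3.73% as lower in Th2. The control antibody stood at 0.835-fold over the Th1 input at Il4 (0.562 to 1.22), below the Ezh2 pull-down of the same cells.

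The difference at Il4 passed its own test. Ezh2 over input was 3.84-fold higher in Th1 than in Th2 (95% interval 2.41 to 6.11, exact conditional test of the 4 counts, adjusted p = 1.30e-04). Of 499219 windows tested in this way, 0.0106% passed as higher in Th1 and 0.0118% as lower. A ratio as high as that of Il4 was reached by 544 windows, Il4 included, and 53 windows in all passed as higher in Th1. Counted over 2 kb on either side of the 5′ end the ratio was 3.44 and did not pass (exact conditional test, adjusted p = 0.344). In the 500 kb on either side of the locus, 0 of 100 tiles of 10 kb reached it, and the highest there was 2.07.

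The inputs entered the ratio at Il4 in the same direction as the Ezh2 libraries. The Ezh2 density alone was 2.53-fold higher in Th1 (95% interval 1.79 to 3.61, exact test, adjusted p = 4.41e-05), while the input density was 1.51-fold higher in Th2 (exact test, adjusted p = 0.484). The Th2 input at Il4 lay above 99.9% of all 10 kb windows of that library, and the Th2 Ezh2 density above 50.7% of its windows. With the inputs exchanged between the cell types, the fold at Il4 was 1.10 in Th1 (0.825 to 1.46) and 0.657 in Th2 (0.457 to 0.937), and neither passed the test. Between the inputs, the call above input in Th1 rests on the Th1 input, whose density at Il4 was the lower of both. With the Th1 control antibody in place of input, the Th1 fold was 1.99 (1.37 to 2.93) and passed (exact test, adjusted p = 0.00416). In all, the Th1 call passed in 6 of 9 alternatives. It did not pass over 2 kb on either side of the 5′ end (1.51-fold, 0.962 to 2.38). Nor did it pass against the surroundings, where the Ezh2 fold was itself above 1 (1.29 over the 500 kb on either side). Relative to them Il4 stood at 1.29 (0.953 to 1.75) in Th1, against 0.351 (0.248 to 0.493) in Th2.

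**Figure D1:**
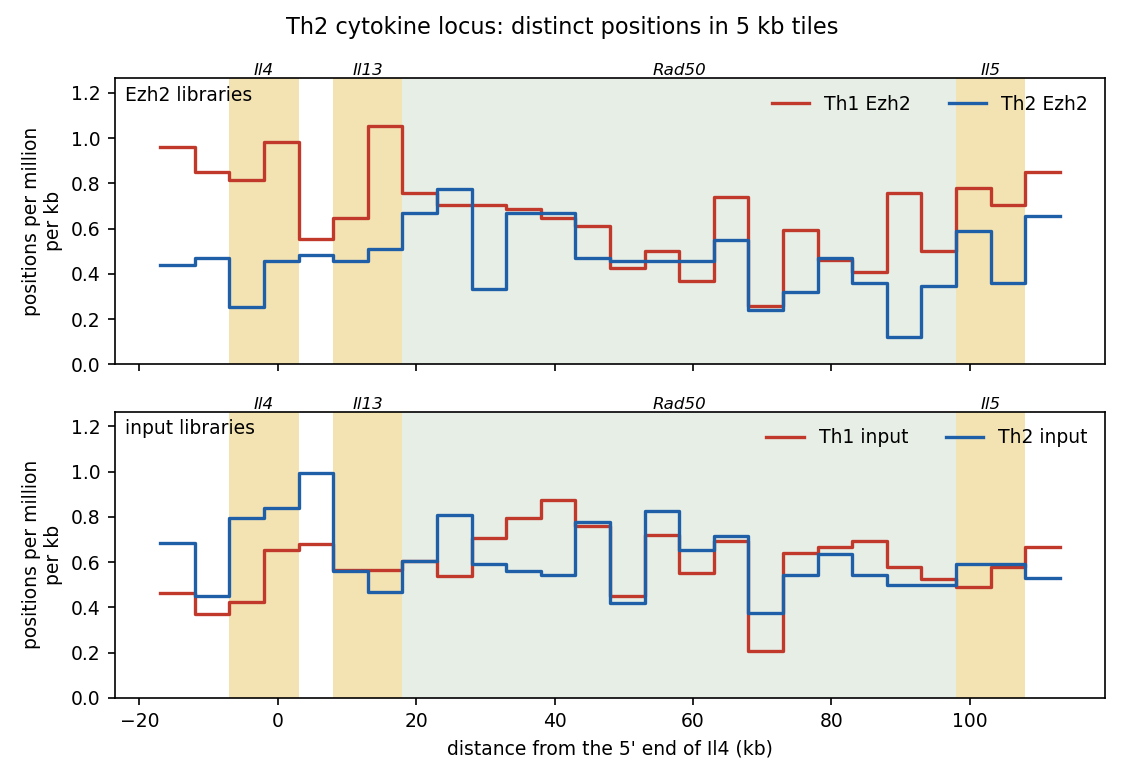
Density in 5 kb tiles (distinct positions per kb, scaled by library total) along the locus (vertical axes), against the distance in kb from the 5′ end of Il4, for the Ezh2 libraries (upper panel) and the inputs (lower panel) of Th1 (red) and Th2 (blue), with the gene windows shaded. Over the Il4 window the Th1 Ezh2 line lies above the Th2 line (0.897 against 0.354 over the 10 kb), and the Th2 input lies above the Th1 input.

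At Il13, the cytokine gene next to Il4, the Ezh2 window counts were 92 positions in Th1 and 72 in Th2, with 88 and 66 in the inputs. The Ezh2 density was 0.851 in Th1 and 0.481 in Th2. It was higher in Th1 in 7 of 10 bins, near the share in the whole locus (94 of 130). The fold over input was 1.51 in Th1 (1.11 to 2.04) and 0.938 in Th2 (0.662 to 1.33), and neither passed the exact test (adjusted p = 0.0783 and 0.942). Totals taken from background windows, the 10 kb bins with Ezh2 over input below the median, raised all folds by 1.43 times in Th1 and 1.41 times in Th2. Il13 in Th1 passed in 4 of 9 alternatives: with those totals (2.15), with all reads counted (1.55), with the Th2 input (1.66) and over 2 kb on either side of the 5′ end (2.34, exact test, adjusted p = 0.0232). With the background totals its value in Th2 turned to above 1 (1.32). The ratio between the cell types was 1.61 (1.01 to 2.57, exact conditional test, adjusted p = 0.688). With all reads counted, which takes in possible amplification copies, it was 1.96 and passed (exact conditional test, adjusted p = 0.00545). The interval runs from almost no difference to 2.57-fold, so at this depth a difference within it could not be told from none after adjustment.

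The Il13 window was uneven in Th1. Its tile nearer Il4 (chr11:53440001-53445000) stood at 1.15-fold over input (0.714 to 1.83). The tile nearer Rad50 (chr11:53445001-53450000) stood at 1.87-fold (1.24 to 2.83), and the intervals overlap. The Th1 control antibody was uneven in the same direction, at 0.531-fold and 1.37-fold, so the step was not seen for Ezh2 alone. In Th2 the same tiles stood at 0.812-fold and 1.09-fold. The 10 kb window from 53445001, which covers the second tile and the edge of the Rad50 stretch, was called above input in Th1 (1.55-fold, 1.16 to 2.09, exact test, adjusted p = 0.0459).

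Il5, the eosinophil growth factor gene at the far end of the locus, was close to Il13 in its values. Its window held 80 Ezh2 positions in Th1 and 71 in Th2, with 83 and 76 in the inputs. The Ezh2 density was 0.740 in Th1 and 0.474 in Th2. It was higher in Th1 in 10 of 10 bins, against 94 of 130 in the whole locus. The fold was 1.39 in Th1 (1.01 to 1.91) and 0.803 in Th2 (0.573 to 1.12), and neither passed (exact test, adjusted p = 0.217 and 0.496). With totals from background windows the Th1 value passed (1.98) and the Th2 value lay above 1 (1.13). The ratio was 1.73 (1.08 to 2.77, exact conditional test, adjusted p = 0.582). As at Il13, the number of positions leaves a wide interval.

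Over the Rad50 stretch the Ezh2 fold was below 1 in both cell types and passed as lower in Th2, but with totals from background windows it was 1.30 in Th1 and 1.08 in Th2. Its 80 kb held 493 Ezh2 positions in Th1 and 550 in Th2, against 779 and 617 in the inputs. The fold was 0.912 in Th1 (0.813 to 1.02, exact test, adjusted p = 0.162) and 0.766 in Th2 (0.682 to 0.861, adjusted p = 3.49e-05). The input density lay above 99.2% of all 80 kb windows in Th1 and 98.6% in Th2. The Ezh2 density lay above 81.0% and 68.0%, so the folds below 1 go with a high input and not with a low Ezh2 density. Among all 80 kb windows of the genome, 44.0% passed as lower in Th2, and the median fold was 0.875, so a value below input was common, and 0.559% passed as higher in Th1 in the test between the cell types. The control antibody stood at 0.866-fold over the Th1 input (0.766 to 0.978), near the Th1 Ezh2 value. The ratio between the cell types was 1.19 (1.01 to 1.40, exact conditional test, adjusted p = 0.366), and it passed with all reads counted (1.19, adjusted p = 0.0373) and for Ezh2 positions without input (1.24, adjusted p = 0.0125).

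The Rad50 stretch was not even along its length. In its 8 adjoining tiles of 10 kb the fold ran from 0.639 to 1.28 in Th1 and from 0.470 to 1.02 in Th2. In Th1 it was highest next to Il13, at chr11:53450001-53460000, and lowest at chr11:53510001-53520000. Among these tiles, the Th2 fold was highest in the same tile as in Th1. It was lowest at chr11:53520001-53530000, the tile next to the Il5 window. That is the side of the Rad50 5′ end, and whether the tile lies in the gene was not placed. In that tile the Th2 libraries held 35 Ezh2 and 64 input positions (0.470-fold, 0.302 to 0.721, exact test, adjusted p = 0.00835), and the Th1 libraries held 68 and 86 (1.14-fold, 0.817 to 1.59). Its ratio of 2.42 (1.40 to 4.23) was the highest inside the Rad50 stretch and did not pass (exact conditional test, adjusted p = 0.289). Windows offset by 5 kb from these tiles gave other extremes in Th2. The Th2 fold there was highest at chr11:53465001-53475000 (1.21, 0.884 to 1.67), where Th1 stood at 0.798. It was lowest at chr11:53515001-53525000 (0.462, 0.299 to 0.703).

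**Figure D2:**
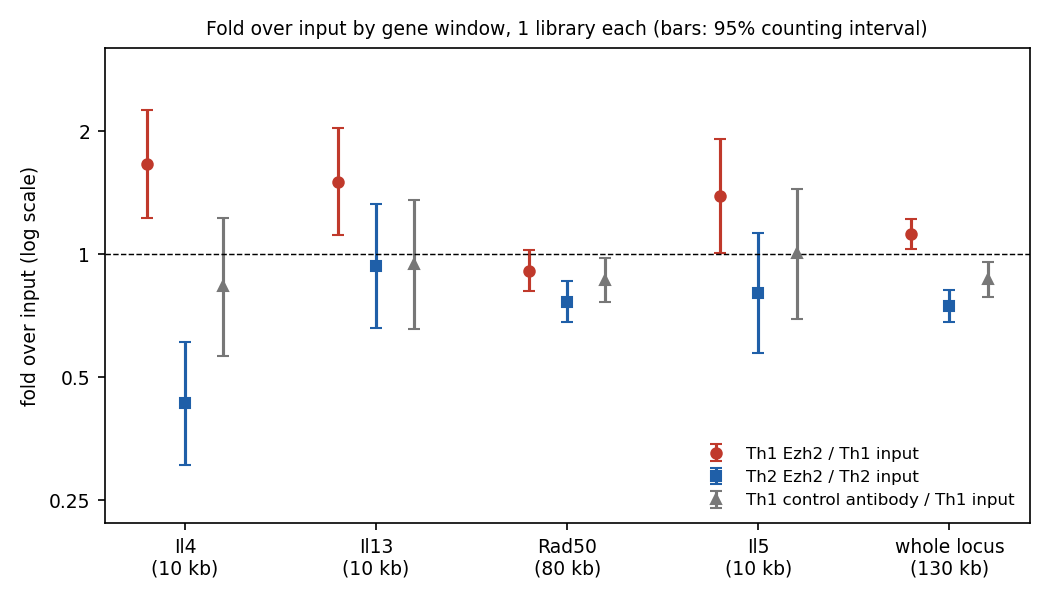
Fold over input (vertical axis, log scale) by gene window and for the whole locus, for Th1 Ezh2 (red circles), Th2 Ezh2 (blue squares) and the Th1 control antibody (grey triangles), 1 library each, with 95% counting intervals as bars. The Th1 and Th2 intervals are apart at Il4 (1.23 to 2.26 and 0.306 to 0.609) and for the whole locus, and they overlap at Il13, Rad50 and Il5.

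The 4 genes ranked differently in the cell types. In Th1 the fold fell in the order Il4 (1.66), Il13 (1.51), Il5 (1.39) and Rad50 (0.912), and the 3 cytokine windows had overlapping intervals. In Th2 the order was Il13 (0.938), Il5 (0.803), Rad50 (0.766) and Il4 (0.434), where the interval of Il4 lay below those of Il13 and Rad50 and overlapped that of Il5. The order in Th1 depended on the setting. With the Th2 input Il4 stood at 1.10, below Il13 (1.66) and Il5 (1.25), and over 2 kb on either side of the 5′ end it stood at 1.51, below Il13 (2.34) and Il5 (1.64). The ratio of the cell types was above 1 at all 4 genes, and it passed the test at Il4 alone.

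All 25 windows of 10 kb at 5 kb steps showed where along the locus the libraries departed from input. These windows overlap their neighbours, so adjacent calls share positions. In Th1, 4 windows were called higher and 0 lower, where 6 and 2 had an unadjusted p under 0.05 in the exact binomial test. In Th2, 0 were called higher and 7 lower, where 0 and 10 had such a p. Totals from background windows shift every fold by 0.51 (Th1) and 0.49 (Th2) on the log2 scale, and call 110265 and 104138 of all windows higher and 1294 and 1254 lower. With them 12 windows of the locus were called higher in Th1, and in Th2 2 were called higher and 1 lower. With all reads counted, 3 were called lower in Th1 and 13 in Th2, where 15.8% and 19.4% of all windows were called lower. Genome-wide, 2.88% of windows were called lower in Th1 and 4.62% higher in Th2. The median fold of the 25 windows was 1.11 in Th1 and 0.733 in Th2, where all windows had medians of 0.894 and 0.893.

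The windows above input in Th1 lay around Il4 and at Il13. Beside the Il4 window itself and the one at Il13 given above, they started at 53415001 (2.17-fold, 1.57 to 3.02) and at 53420001 (2.09-fold, 1.50 to 2.94), on the side of Il4 that faces Kif3a, the neighbouring motor protein gene. Il4 is read in that direction, so these windows lie on its downstream side. The Th1 control antibody stood at 1.13-fold and 1.21-fold there.

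Below input in Th2, 4 of the 7 windows formed an unbroken run from 53420001 to 53445000. It went across Il4 and into the part of the Il13 window that faces Il4 (chr11:53440001-53445000). That part alone stood at 0.812-fold in Th2 (0.493 to 1.33). Within that run the fold was lowest in the Il4 window (0.434) and rose to 0.602 in the window from 53435001. The windows from 53430001 and 53435001 held 70 Th2 Ezh2 positions each, above the median of 52 over all windows. Their Th2 input positions were 118 and 100, where the median was also 52, so these low folds go with a high input. In Th1 the Ezh2 fold was 0.966 in the window from 53435001, where the Th1 control antibody was at 0.465. The other 3 were in the Rad50 stretch, from 53485001 (0.615-fold), 53515001 (0.462-fold) and 53520001 (0.470-fold).

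Of the 25 windows, 2 passed the test of the difference, both higher in Th1. At an unadjusted p under 0.05 there were 9 higher in Th1 and 0 lower. The windows that passed were the Il4 window and the overlapping one from 53420001 (ratio 3.61, 2.19 to 5.95, exact conditional test, adjusted p = 0.00366). The ratio exceeded 1 in 22 windows and the median was 1.42, against 0.993 over all windows of the genome. The lowest was 0.659 (0.424 to 1.02), from 53465001 in the Rad50 stretch, where the Th2 fold of 1.21 was the highest of the locus and the Th1 fold was 0.798.

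**Figure D3:**
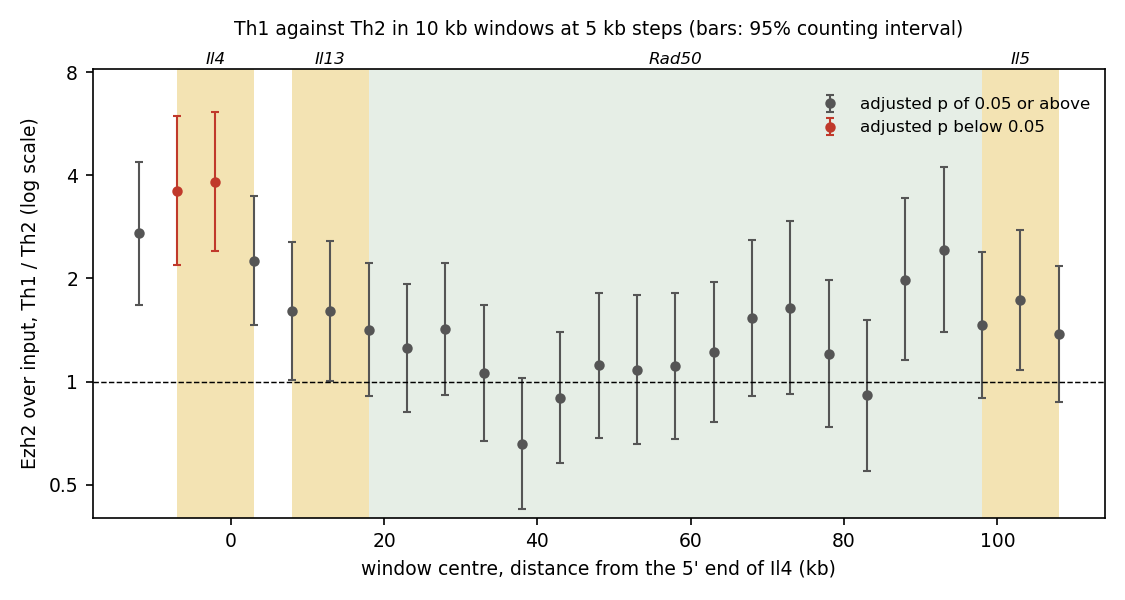
Ratio of Ezh2 over input in Th1 to that in Th2 (vertical axis, log scale) for the 25 windows of 10 kb, against the distance of the window's centre from the 5′ end of Il4, with 95% counting intervals; red points passed the exact conditional test. The ratio is highest at Il4 (3.84), falls to 0.659 inside the Rad50 stretch and is 1.73 at Il5.

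**Figure D4:**
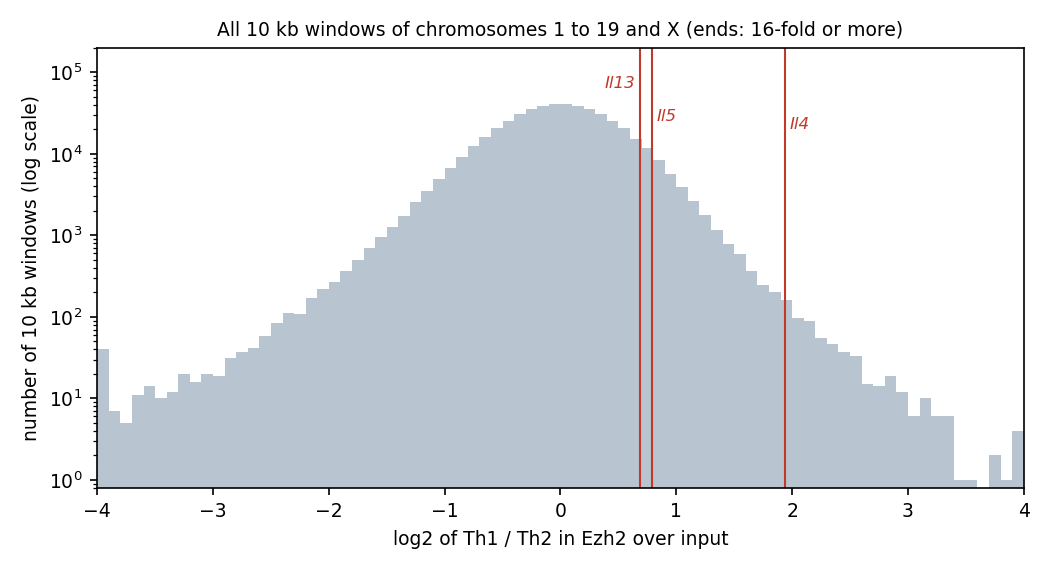
Number of 10 kb windows of the genome (vertical axis, log scale) by log2 of the Th1 to Th2 ratio in Ezh2 over input, with the 3 cytokine windows as red lines. Il4 (3.84) lies in the upper tail, where 544 of 499219 windows had a ratio as high, and Il13 (1.61) and Il5 (1.73) lie above 91.9% and 94.5% of windows.

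No 1 kb bin of the locus was called for Ezh2 in either cell type. By a one-sided exact binomial test with at least 2-fold enrichment, 0 of 119 tested 1 kb bins were called in Th1 and 0 of 113 in Th2, where 0.992% and 1.21% of all tested bins were called. At an unadjusted p under 0.05 there were 15 bins in Th1 and 3 in Th2, and the lowest adjusted p was 0.103 and 0.443. With all reads counted, 8 of 127 tested bins were called in Th1 (6.30%, against 3.83% of all tested bins) and 2 of 126 in Th2 (1.59%, against 5.83%). With totals from background windows 7 of 119 were called in Th1 (5.88%, against 53282 of all 1332288) and 0 of 113 in Th2 (against 3.59%). A bin of the locus held at most 17 Ezh2 positions in Th1 and 15 in Th2. Bins at least 2-fold over input before any test numbered 18 in Th1 (15.1%, against 14.7% of all tested bins) and 11 in Th2 (9.73%, against 14.6%). Bins at or below 0.5-fold made up 9.24% in Th1 and 21.2% in Th2, against 14.7% and 14.9% of all tested bins. The nearest called bin lay 106 kb before the locus in Th1 and 96 kb before it in Th2.

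Single tested bins, with 0.5 added to each count, ran in both directions in each cell type. The highest bins in Th1 were chr11:53427001-53428000 in the Il4 window (4.74-fold, 11 Ezh2 and 3 input positions), chr11:53422001-53423000 (4.32-fold, 13 and 4) and chr11:53449001-53450000 in the Il13 window (3.88-fold, 17 and 6). Of the lowest bins in Th2, 2 lay side by side in the Il4 window. They were chr11:53428001-53429000 (0.159-fold, 2 Ezh2 and 13 input positions) and chr11:53429001-53430000 (0.123-fold, 2 and 17). In Th1 the same bins stood at 1.90-fold and 2.08-fold. The third, chr11:53522001-53523000 in the Rad50 stretch, held 1 Ezh2 position in Th2 (0.123-fold) and 7 in Th1 (1.44-fold). Other bins went the opposite way. The lowest tested bin in Th1 was chr11:53442001-53443000 in the Il13 window (0.195-fold, 2 Ezh2 and 18 input positions). Next were chr11:53518001-53519000 in the Rad50 stretch (0.371-fold) and chr11:53436001-53437000 (0.374-fold). The last value was shared by chr11:53471001-53472000 and chr11:53489001-53490000 in the Rad50 stretch. The highest bin in Th2 was chr11:53480001-53481000 in the Rad50 stretch (5.44-fold, 9 and 1), above every tested bin of the locus in Th1. The next in Th2 were chr11:53530001-53531000 in the Il5 window and chr11:53455001-53456000 in the Rad50 stretch, each with 15 Ezh2 and 4 input positions (2.96-fold). With so few positions in a bin, these values carry wide intervals, and none of the bins named here was called.

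As a whole, the locus stood at 1.12-fold over input in Th1 (1.03 to 1.22, exact test, adjusted p = 0.0156) and at 0.747-fold in Th2 (0.682 to 0.817, adjusted p = 1.47e-09). The inputs were themselves high here, above 97.7% of 130 kb windows in Th1 and 99.7% in Th2. The Ezh2 densities lay above 90.1% and 67.7% of such windows, so the Th2 fold does not mean a low Ezh2 density. Among all 130 kb windows 20.2% passed as higher in Th1 and 50.6% as lower in Th2, so neither call was rare. Nor did the directions hold under every scaling. Against the surroundings the Th1 fold was 0.868 (0.796 to 0.946) and passed as lower (exact test, adjusted p = 0.00550). With totals from background windows the Th2 fold was 1.05. With the Th2 input the Th1 fold was 1.08 and did not pass. The ratio of 1.50 (1.32 to 1.70, exact conditional test, adjusted p = 1.35e-07) was less common, since 1.07% of such windows passed as higher in Th1. The 500 kb on either side had folds of 1.29 in Th1 (1.25 to 1.33) and 1.24 in Th2 (1.20 to 1.27) as a mean. These means include tiles with high folds (up to 4.66 in Th1 and 4.77 in Th2), and the median over the 100 tiles of 10 kb was 1.20 in Th1, inside the interval of the locus, and 1.11 in Th2, above it. The 20 kb just before the locus, on the side of Il4, had lower folds than the locus in both cell types (0.987 in Th1 and 0.640 in Th2) and a ratio of 1.54, close to that of the locus. That ratio was not tested. The 20 kb after it had a ratio of 1.13. For scale, the widest Ezh2 region of the genome, on chromosome 15, stood at 8.14-fold in Th1 and 12.2-fold in Th2.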

How the data were processed

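Chromatin from Th1 and Th2 cells was sequenced for 36 cycles after 18 cycles of PCR on fragments of 170 to 250 bp, per the labels' protocols. The deposited values are read counts per genomic interval, without strand or normalization; the submitters' processing notes name CASAVA and the mm9 build. For the aligner's settings, read extension and filters, the step is not given in the sources used here. Distinct intervals were counted at their midpoint, since no strand is given, and scaled by totals on chromosomes 1 to 19 and X. Windows of 10 kb, 80 kb and 130 kb at 5 kb steps with at least 10 positions entered two-sided exact binomial tests against input and, with at least 10 Ezh2 and 10 input positions over both cell types, an exact conditional test of Th1 against Th2. Each test was adjusted by Benjamini-Hochberg over all windows of its width, with a threshold of 0.05. Bins of 1 kb needed at least 2-fold as well. The named items are the 4 genes and, per cell type, the 3 highest and 3 lowest tested bins, with ties in Th1. Other windows and tiles were named after their values were seen. The Th2 control antibody library was not analysed here. The members and lists were chosen with earlier results of these data known. Alternatives were all reads, interval starts, other totals, backgrounds and window widths, and equal depth. The steps were tested on simulated data. Python 3.11.15, numpy 2.4.6, scipy 1.17.1 and numba 0.67.0 were used.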

Additional observations from a re-analysis of the deposited data

Results flagged for a closer look

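At Il4, Ezh2 over input differed between the cell types by the exact conditional test of the 4 position counts, with a ratio of Th1 to Th2 of 3.84. Over the whole locus the same test gave a ratio of 1.50, and the Il4 window is part of it. Each rests on 1 library per group, and the part of the higher Th2 input at Il4 was not tested beyond the values given above.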

How the results depend on the processing

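No paired analysis was possible because a group is a single library here, and for the same reason no replicate could be left out. Of 118 alternative folds and ratios, 95 kept their direction and their side of the threshold. Of 53 alternative counts of called bins or windows, 34 equalled the count reported. The Il4 ratio of Th1 to Th2 ran from 2.53 to 3.89 over 9 alternatives and passed in 8, and the ratio of the whole locus ran from 1.44 to 1.54 and passed in each.

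With all deposited reads, 8 bins of 1 kb were called in Th1 and 2 in Th2, Il13 passed in Th1 (1.55), and the ratios of Il13 (1.96) and Rad50 (1.19) passed. Reads of the same interval can be amplification copies, which these tests take as separate counts, so their p-values can be too low. Reads per position were 2.25 in Th1 Ezh2, 2.04 in Th2 Ezh2, 1.30 in the Th1 input and 1.77 in the Th2 input. With totals from background windows, 7 bins were called in Th1, and Il13 (2.15) and Il5 (1.98) passed in Th1. Under that scaling the fold turned to above 1 for Rad50 in Th1 (1.30) and, in Th2, for Il13 (1.32), Il5 (1.13), Rad50 (1.08) and the whole locus (1.05). With the input of the other cell type, Il4 no longer passed in Th1 (1.10) or Th2 (0.657), nor the whole locus in Th1 (1.08), while Il13 passed in Th1 (1.66). Against the control antibody Rad50 stood at 1.05 in Th1. Relative to the 500 kb on either side, Il4 in Th1 (1.29) no longer passed and Rad50 in Th1 passed as lower (0.707). The whole locus in Th1 turned to 0.868 there and passed as lower. Over 2 kb on either side of the 5′ end, Il4 in Th1 (1.51) and its ratio (3.44) no longer passed, Il13 passed in Th1 (2.34) and Il13 in Th2 was at 1.00. For Ezh2 positions without input the Rad50 ratio passed (1.24). The cause of these changes was not tested.

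The counts of called 10 kb windows were tried under alternatives chosen after seeing the data. All reads gave 3 lower in Th1, 13 lower in Th2 and 8 with a ratio higher in Th1. Background totals gave 12 higher in Th1, 2 higher in Th2 and 1 lower in Th2. The other input gave 1 lower in Th1 and 4 lower in Th2, and equal depth (10809666 Ezh2 and 12862628 input positions) gave 4 lower in Th2. Relative to the surroundings there were 1 higher and 4 lower in Th1 and 12 lower in Th2. Shares over all windows were not taken for the ratio with all reads, the other input, equal depth or the surroundings. Those counts therefore cannot be set against the genome.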
